A study of Mus musculus with 21 samples.

Results

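The Wnt co-receptors Lrp5, Lrp6, Ror1, Ror2, Ryk and Ptk7 and the less-studied receptors Fzd3, Fzd6, Fzd8 and Fzd9 were followed in sorted mouse keratinocytes with and without chronic p16 expression. These 10 genes were taken by symbol from the 22050 entries of the expression table, and all 10 were found. Expression was measured by mRNA-seq in 4 control samples and 4 p16 samples. Control mice carried K5-rtTA/tet-GFP, and the p16 mice had tet-p16 in addition (K5-rtTA/tet-GFP/tet-p16), both on a mixed FVB, C57Bl and 129sv background. All mice, controls included, received doxycycline for 6 months, starting when they were 3 weeks old. According to the study's methods the mice induced for this period were males. Doxycycline switches on the tet transgenes (GFP, and human p16 where present) in cells that make rtTA. The keratin 5 promoter directs rtTA to the basal epidermis and hair follicles. According to the paper, only a subset of the epidermal cells expressed the human transgene. Each sample held about 80000 GFP+ cells of dorsal skin, pooled from 3 mice, after removal of CD140a+, CD45+ and CD31+ cells. GFP stands in for p16 in this sort, because the cells were not selected on p16 itself, and its transcript differed between the groups, as given below. Of the 21 samples in the labels, the 13 of a later profiling were not analysed here.

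Wnt ligands bind the cysteine-rich domain of Fzd receptors, and the choice of partner at the membrane decides which route the signal takes. Lrp5 and Lrp6 are single-pass members of the LDL receptor family that join Fzd and Wnt in a complex, whose phosphorylated tail holds Axin and thereby protects β-catenin from degradation. Ror1, Ror2, Ryk and Ptk7 are transmembrane proteins with a kinase-like domain that serve mainly β-catenin-independent signals such as planar cell polarity, and Ror2 is a receptor for Wnt5a. Fzd3 and Fzd6 also act mostly in planar cell polarity, and in mouse skin Fzd6 sets the direction in which hairs grow. Signals through Fzd and Lrp6 control hair-follicle formation and the hair cycle.

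The libraries held between 1760953 and 3414362 reads on genes. The values given here are normalized values, that is, reads over the size factor of their library, in which 1 read was worth between 0.742 and 1.53. The human CDKN2A transgene ranged from 0.7 to 2.5 in control samples and was 10.1, 16 and 7.4 in the p16 samples of replicates 2 to 4. In the library labelled p16 replicate 1 it was 1.6, inside the control range. These transgene values rest on 1, 1, 3 and 1 reads over control replicates 1 to 4 and 2, 13, 18 and 9 over p16 replicates 1 to 4. The difference did not pass an adjusted p of 0.05 (limma adjusted p = 0.0952). The EGFP transcript, which encodes the marker used for sorting, was at 4152 to 5913 in control samples and at 3162 to 3979 in p16 samples, without overlap, and fell by 0.58 on the log2 scale (limma adjusted p = 0.0167). Basal keratinocyte markers such as Krt5 and Krt14 were abundant in every sample. The summed value of 6 such markers, most of it Krt5 and Krt14, was between 23438 and 40560 in control cells and between 25299 and 28934 in p16 cells. Of the 6, 0 were called in limma. Krt5 and Krt14 had lower means in p16 cells and the other 4 had higher ones. Among these 4, Itgb4 and Itga6 (log2 fold changes 0.37 and 0.21) had an unadjusted p under 0.05 in limma, where 7.02% of all genes are higher. Of 9 hair-follicle stem cell markers, 8 fell in p16 cells (limma adjusted p under 0.05, as for 2.61% of all genes tested), among them Cd34 and Lhx2. The summed value of the 9 was 12493 to 16438 in control cells and 9073 to 9301 in p16 cells. Most of it was Krt15, at 8443 to 13136 in control samples and 6607 to 7834 in p16 samples. Of 6 fibroblast markers, Dcn rose, with 2.6 to 10.7 in control samples and 36.2 to 203 in p16 samples. Col1a1 was at 0.8 to 2.6 in control samples and 2.3 to 11.5 in p16 samples (limma adjusted p = 0.285). Pdgfra was at 0 to 1.3 and 0 to 3.5 (limma adjusted p = 0.756), and Col1a2 at 4.2 to 17.8 and 1.6 to 3.3 (limma adjusted p = 0.0571). Col3a1 was at the limit of detection and Lum was at 0 in every sample. The sum of the 6 was 10.8 to 27.3 in control cells and 42.8 to 220.7 in p16 cells, most of it Dcn in the latter. Of 7 markers of differentiated keratinocytes, Lor rose (limma adjusted p = 0.0095) and Ivl and Sbsn fell (0.0215 and 0.0091), with sums of 5983 to 8394 and 6373 to 9803. Of 5 T cell markers, 0 were called in limma (Thy1 higher and Cd3d lower at an unadjusted p under 0.05), and Cd3e and Ptprc were at the limit of detection. Cd3d was at 7.6 to 15.0 in control samples and 1.8 to 7.4 in p16 samples, without overlap (limma adjusted p = 0.172). The sum was 590 to 810 in control cells and 686 to 2917 in p16 cells, mostly Thy1, so it says little about the other markers. Of 6 melanocyte markers, Dct and Tyrp1 fell, and the sum was 126 to 503 in control cells and 48.4 to 137.4 in p16 cells. Of 6 Langerhans and myeloid cell markers, 0 were called in limma, Lyz2 was at 0 throughout and Csf1r was at the limit of detection. Cd207 was at 0 to 0.8 in control samples and 1.8 to 4.7 in p16 samples, without overlap but on few reads (limma adjusted p = 0.0922). The sum was 131.5 to 157.9 in control cells and 140.6 to 188.7 in p16 cells, mostly Cd74. Of 6 endothelial markers, Cdh5, Kdr, Emcn and Cldn5 were at 0 throughout and Tek was at the limit of detection. Pecam1 was at 1.3 to 5.0 in control samples and 3.1 to 6.4 in p16 samples (limma adjusted p = 0.444). The sum of these 6 was 1.3 to 5.2 in control cells and 4.7 to 7.2 in p16 cells. The part of these shifts in the receptor values below was not tested, and in bulk samples fewer cells of a type and less RNA per cell cannot be told apart.

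None of the 9 receptors that could be tested was called as changed in p16 cells. A gene was called when its Benjamini-Hochberg adjusted p was under 0.05 in limma, fitted on log2(normalized value + 1) to 12782 genes whose values averaged 1 or more. Over all these genes, 3.86% were called (1.24% higher and 2.61% lower in p16 cells). At an unadjusted p under 0.05, where 15.9% of all genes pass, Ror2 had higher values in p16 cells (as did 7.02% of all genes at this level) and Lrp6 lower values (8.93%). The edgeR and DESeq2 tests on the recovered reads also called 0 of the 9 after adjustment, while they called 4.29% and 4.38% of all genes. The median log2 fold change of the 9 receptors was -0.01, the median over all tested genes was 0.00 to 2 decimals, and the median size of the change regardless of sign was 0.13 for the receptors and 0.18 for all genes. The values of the groups did not overlap for Ror2 alone among the 9, whereas 9.83% of all tested genes showed no overlap. Adding 1 before taking logs pulls the fold changes of genes with few reads, such as Ror2, towards zero.

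**Figure D1:**
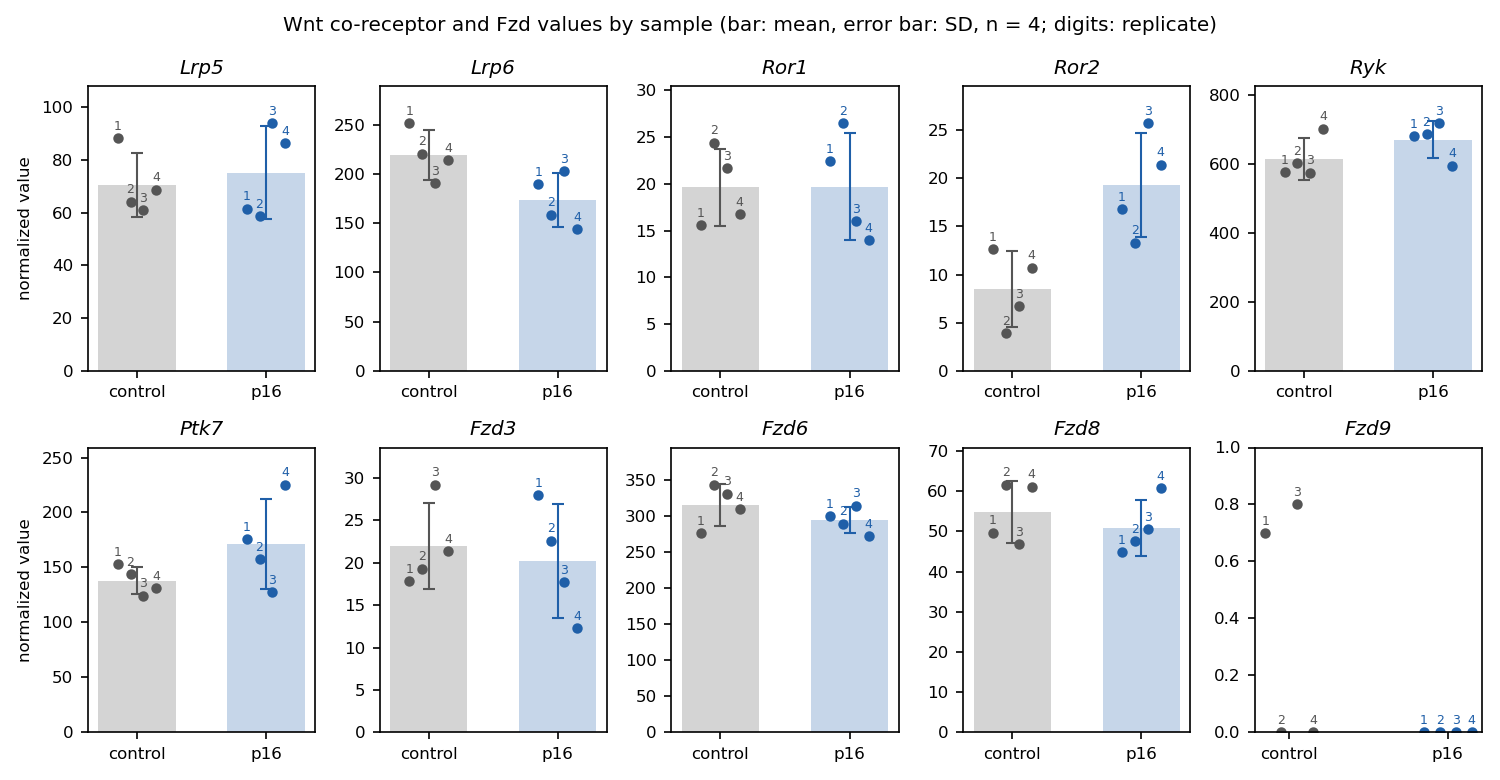
Normalized values (y axis from 0) of the 10 receptor genes in the 4 control (grey) and 4 p16 (blue) samples, with points for samples, digits for replicate numbers, bars for means and error bars for the SD (no bar for Fzd9, which had at most 1 read in a sample). The groups overlap in every panel except that of Ror2, where control samples reach 12.6 and p16 samples start at 13.3.

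Lrp5 and Lrp6 are near relatives that can replace each other in much of β-catenin signalling. Lrp6 (ENSMUSG00000030201, chromosome 6 of GRCm38 from 134446476 to 134566965, minus strand) was at normalized values of 251.5, 220.7, 190.4 and 213.9 over control replicates 1 to 4, against 189.5, 158.5, 203.0 and 143.9 over p16 replicates 1 to 4. Of the p16 samples, 3 lay below every control sample, and p16 replicate 3 lay among the controls. The means were 219 ± 25.2 for control and 174 ± 27.2 for p16 cells (SD, n = 4 each), which is 0.79 of the control level. This gave a log2 fold change of -0.34 with a 95% interval from -0.62 to -0.06. It did not pass after adjustment in limma (adjusted p = 0.199, and from 0.128 to 0.431 over 18 other settings), and the exact two-sided permutation test gave an unadjusted p of 0.0571, where 4 samples against 4 allow 0.0286.

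Lrp5 (ENSMUSG00000024913, chromosome 19, 3584828 to 3686564, minus strand), known above all for its role in bone mass, was at normalized values of 88.3, 64.2, 61.0 and 68.8 over control replicates 1 to 4, against 61.6, 58.6, 94.0 and 86.3 over p16 replicates 1 to 4. The p16 samples fell on both sides of the control range, with p16 replicate 3 highest and p16 replicate 2 lowest of all 8. Its log2 fold change was 0.07, with an interval from -0.32 to 0.46 (limma adjusted p = 0.903), or -0.04 without p16 replicate 3. The interval corresponds to between 0.80-fold and 1.38-fold, and changes of Lrp5 within these bounds are compatible with the values.

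Because Lrp5 and Lrp6 are read from the same library, the share of Lrp6 in their sum does not depend on how libraries were scaled. It is a share of counted reads and serves to compare samples, not the levels of both genes. That share was 74.0%, 77.5%, 75.7% and 75.7% over control replicates 1 to 4, against 75.5%, 73.0%, 68.4% and 62.5% over p16 replicates 1 to 4. The control samples lay within a few percentage points of each other, while the p16 samples reached from inside the control range to well below it. On average the share was 75.7% ± 1.41 for control and 69.8% ± 5.71 for p16 cells (SD, n = 4 each). The difference of -5.89 percentage points did not pass (exact two-sided permutation test, p = 0.0571, or 0.171 adjusted over 3 such shares). It was -3.44 points without p16 replicate 4 and -7.76 points without p16 replicate 1. With 3 shares, a single one at the smallest possible p of 0.0286 could not have passed after adjustment either.

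**Figure D2:**
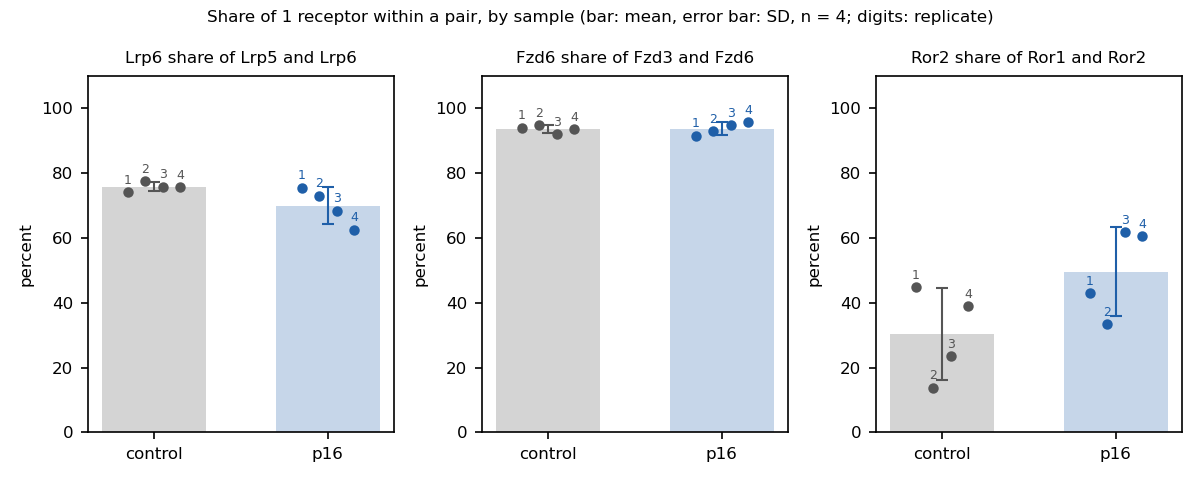
Share (percent, y axis from 0) of Lrp6 in Lrp5 and Lrp6, of Fzd6 in Fzd3 and Fzd6, and of Ror2 in Ror1 and Ror2, in control (grey) and p16 (blue) samples, with bars for means, error bars for the SD (n = 4) and digits for replicates. The groups overlap in all 3 panels, and the Fzd6 share stays between 91.5% and 95.7% in all 8 samples.

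Ror1 and Ror2 carry an extracellular cysteine-rich domain like that of Fzd receptors. Ror2 (ENSMUSG00000021464, chromosome 13, 53109312 to 53286124, minus strand) was at normalized values of 12.6, 3.9, 6.7 and 10.7 over control replicates 1 to 4, against 16.8, 13.3, 25.7 and 21.4 over p16 replicates 1 to 4. The lowest p16 sample was still above the highest control sample, although control replicate 1 and p16 replicate 2 were close to each other. These values rest on few reads, namely 17, 3, 8 and 7 in the controls and 21, 17, 29 and 26 in the p16 samples. The means were 8.47 ± 3.92 for control and 19.3 ± 5.40 for p16 cells (SD, n = 4 each), a ratio of 2.28. The log2 fold change was 1.17 (standard error 0.34, interval from 0.43 to 1.90), the largest in size among the 9 receptors. Its adjusted p in limma was 0.0848 and did not pass, and it ran from 0.0534 to 0.339 over 18 other settings, the highest being without replicate 3 of both groups. The exact two-sided permutation test gave an unadjusted p of 0.0286, the smallest that 4 against 4 samples allow.

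Ror1 (ENSMUSG00000035305, chromosome 4, 100095791 to 100444765, plus strand) was at normalized values of 15.6, 24.4, 21.7 and 16.8 over control replicates 1 to 4, against 22.4, 26.5, 16 and 14.0 over p16 replicates 1 to 4. The p16 samples spanned the whole control range, with means of 19.6 ± 4.13 and 19.7 ± 5.77 (SD, n = 4 each). The log2 fold change of -0.01 had an interval from -0.57 to 0.54 (limma adjusted p = 0.989) and was 0.13 without p16 replicate 4. Ror2 took 30.2% ± 14.1 of the sum of both genes in control cells and 49.6% ± 13.8 in p16 cells (SD, n = 4 each). The shares overlapped, since control replicate 1 had 44.7% and p16 replicate 2 had 33.4% (exact two-sided permutation test, p = 0.143, or 0.214 adjusted over the 3 shares). The values thus do not show that Ror2 changed relative to Ror1.

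The promoters of these relatives are shown because Ror2 alone among the receptors had values without overlap and Ror1 is its nearest relative. RefSeq promoters (GRCm38.p6, from 250 bases before to 50 after the start of the gene) were matched for 5 of the 10 receptors. Capitals mark CTTTG, the core of the motif bound by Tcf and Lef factors, or its reverse complement CAAAG, searched on both strands. The windows are chr4:100095541-100095840 on the plus strand for Ror1 and chr13:53286075-53286374 on the minus strand for Ror2, both written 5′ to 3′ along the gene.
Ror1: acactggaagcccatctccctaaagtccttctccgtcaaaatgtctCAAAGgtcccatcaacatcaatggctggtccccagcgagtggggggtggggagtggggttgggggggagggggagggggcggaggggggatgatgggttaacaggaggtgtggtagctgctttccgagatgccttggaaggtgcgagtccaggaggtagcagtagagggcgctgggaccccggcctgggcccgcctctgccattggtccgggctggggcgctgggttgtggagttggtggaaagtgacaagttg
Ror2: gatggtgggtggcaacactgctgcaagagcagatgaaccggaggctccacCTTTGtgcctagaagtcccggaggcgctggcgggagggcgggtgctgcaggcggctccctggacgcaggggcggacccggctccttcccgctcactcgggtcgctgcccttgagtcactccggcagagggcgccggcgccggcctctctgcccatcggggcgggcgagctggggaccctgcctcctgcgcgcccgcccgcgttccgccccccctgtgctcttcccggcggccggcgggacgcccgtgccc
Each window held 1 match, and 53.9% of the 32851 promoters of this length hold at least 1. The Ror2 window had a GC content of 74.7% with 32 CpG dinucleotides and the Ror1 window 62.3% with 10, where the median over all promoters was 52.7% and 7.

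Ryk and Ptk7 have a kinase-like domain that has lost catalytic activity. Ryk (ENSMUSG00000032547, chromosome 9, 102834917 to 102908305, plus strand), which binds Wnt through a WIF domain, was at normalized values of 576.4, 603.2, 575.5 and 702.8 over control replicates 1 to 4, against 682.0, 687.8, 719.1 and 596.1 over p16 replicates 1 to 4. In each group 3 samples lay close together and replicate 4 lay apart, at the upper end of the p16 range for the control and at the lower end of the control range for p16. For Ryk the log2 fold change was 0.13, with an interval from -0.08 to 0.34 (limma adjusted p = 0.590). The interval corresponds to between 0.95-fold and 1.26-fold and was the narrowest of the 9 receptors.

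Ptk7 (ENSMUSG00000023972, chromosome 17, 46564471 to 46629504, minus strand), a planar cell polarity protein, was at normalized values of 152.8, 143.7, 124.4 and 131.4 over control replicates 1 to 4, against 175.9, 157.7, 127.7 and 225.3 over p16 replicates 1 to 4. Of the p16 samples, 3 lay above every control and p16 replicate 3 lay among the controls. The means were 138 ± 12.6 and 172 ± 40.9 (SD, n = 4 each), and the log2 fold change was 0.29 with an interval from -0.04 to 0.61 (limma adjusted p = 0.393, exact two-sided permutation p = 0.143). It was 0.15 without p16 replicate 4 and 0.42 without p16 replicate 3, and the adjusted p stayed at or above 0.174 in limma in both cases. Ptk7 overlaps the non-coding gene Gm26904 on the other strand, and Fzd6 likewise overlaps Gm26704. On their own strand, Fzd3 overlaps Gm27263, Ror1 overlaps Gm12701 and Ryk overlaps Gm47427. Fzd3 and Ror1 also overlap pseudogenes on the other strand (Gm9086 and Gm12706). Whether the counting used strand is not given in the sources used here.

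Of the less-studied Fzd receptors, Fzd6 (ENSMUSG00000022297, chromosome 15, 39006034 to 39038188, plus strand) was at normalized values of 276.7, 343.9, 331.6 and 310.1 over control replicates 1 to 4, against 300.6, 289.7, 314.8 and 272.2 over p16 replicates 1 to 4. The p16 samples lay inside the control range except for replicate 4, just below it. The means were 316 ± 29.4 and 294 ± 18.0 (SD, n = 4 each). The log2 fold change of -0.10 had an interval from -0.31 to 0.12, or 0.81-fold to 1.08-fold (limma adjusted p = 0.717).

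Fzd8 (ENSMUSG00000036904, chromosome 18, plus strand), whose cysteine-rich domain is widely used to capture Wnt proteins, was at normalized values of 49.7, 61.6, 46.8 and 61.1 over control replicates 1 to 4, against 44.8, 47.6, 50.5 and 60.8 over p16 replicates 1 to 4. The groups covered nearly the same range, and the log2 fold change was -0.10 with an interval from -0.46 to 0.25 (limma adjusted p = 0.841). Fzd3 (ENSMUSG00000007989, chromosome 14, 65192449 to 65262463, minus strand), the polarity receptor nearest to Fzd6, was at normalized values of 17.8, 19.3, 29.2 and 21.4 over control replicates 1 to 4, against 28.0, 22.6, 17.7 and 12.3 over p16 replicates 1 to 4. Its p16 samples reached from near the top of the control range to below it. Its log2 fold change was -0.15 with an interval from -0.73 to 0.43 (limma adjusted p = 0.862), or 0.05 without p16 replicate 4.

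The share of Fzd6 in the sum of Fzd3 and Fzd6 was 93.5% ± 1.18 in control cells and 93.6% ± 1.89 in p16 cells (SD, n = 4 each, exact two-sided permutation test, p = 0.971). Its difference of 0.13 percentage points was far below the spread between samples. Fzd9 (ENSMUSG00000049551, chromosome 5, 135248938 to 135251230, minus strand) had 1 read in each of control replicates 1 and 3 and 0 in all other samples, so it was at the limit of detection in both groups and was not tested. A count of 3 reads, which a count of 0 allows, corresponds to normalized values between 2.23 and 4.58 in these libraries and covers counting error only.

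Among the p16 samples, replicate 4 was the lowest for Fzd3, Fzd6, Lrp6, Ror1 and Ryk and the highest for Fzd8 and Ptk7, and over all tested genes it was the lowest p16 sample for 32.0% and the highest for 30.8%. Its read counts also differed more from the other p16 libraries than any other pair within a group did, with a chi-square per degree of freedom of at least 6.75 against at most 5.33. Without it, the log2 fold change was 1.11 for Ror2 and -0.25 for Lrp6. Without the library labelled p16 replicate 1, these were 1.22 and -0.39. For replicate 3 of each group the labels name a general Illumina RNA protocol where those of the other samples name CEL-Seq, and with both left out the log2 fold change was 0.96 for Ror2 (limma adjusted p = 0.339) and -0.48 for Lrp6 (limma adjusted p = 0.128). With 1 sample per group, the replicate 3 libraries allow no test of their own.

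The remaining 6 Fzd receptors were set beside these values. Of them, Fzd1, Fzd2, Fzd4 and Fzd7 fell and Fzd10 rose in p16 cells, Fzd5 did not pass (limma adjusted p = 0.0842), and the groups did not overlap at any of the 6. Over all tested genes 3.86% were called and 9.83% showed no overlap. Their median log2 fold change was -0.80, against -0.10 for Fzd3, Fzd6 and Fzd8 and 0.10 for the 6 co-receptors. The intervals were -0.75 to -0.26 for Fzd1, -1.33 to -0.64 for Fzd2 and -1.15 to -0.46 for Fzd7. For Fzd10 the interval was 0.36 to 0.79, wholly above zero. That of Fzd6, from -0.31 to 0.12, overlapped the interval of Fzd1, lay above those of Fzd2 and Fzd7 and lay below that of Fzd10. The interval of Fzd8, from -0.457 to 0.251, also overlapped that of Fzd1, and its lower end was only just above the upper end for Fzd7 (-0.464). That of Fzd3, from -0.73 to 0.43, overlapped the intervals of Fzd1, Fzd2, Fzd7 and Fzd10. The less-studied Fzd receptors as a set were thus not separated from the others by their intervals. Fzd4 had 3 reads or fewer in every p16 sample and was at least 2.65-fold lower. No test of the difference between these sets of genes was made, because they were chosen with results of the same samples known. Over 18 other settings, between 4 and 5 of the remaining Fzd receptors were called, and 0 of the 9 co-receptors and less-studied Fzd receptors. Fzd2, Fzd7 and Fzd10 were called in all 18, and Fzd4 in all 15 in which it was tested. Fzd1 was called in 12, and its limma adjusted p was 0.074 without control replicate 1, 0.073 without control replicate 3, 0.071 without control replicate 4, 0.091 without p16 replicate 1, 0.11 without replicate 3 of both groups and 0.051 with total count scaling.

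As a share of the summed values of all 10 Fzd genes, Fzd3, Fzd6, Fzd8 and Fzd9 together made up 16.6%, 21.7%, 21% and 17.7% over control replicates 1 to 4, against 22.2%, 20.3%, 22.7% and 21.9% over p16 replicates 1 to 4. The ranges overlap through control replicates 2 and 3. The summed value of the 10 genes was 1949 to 2218 in control samples and 1575 to 1772 in p16 samples, which do not overlap. The summed value of Fzd3, Fzd6, Fzd8 and Fzd9 was 344.9 to 424.8 in control samples and 345.3 to 383.0 in p16 samples, inside the control range.

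**Figure D3:**
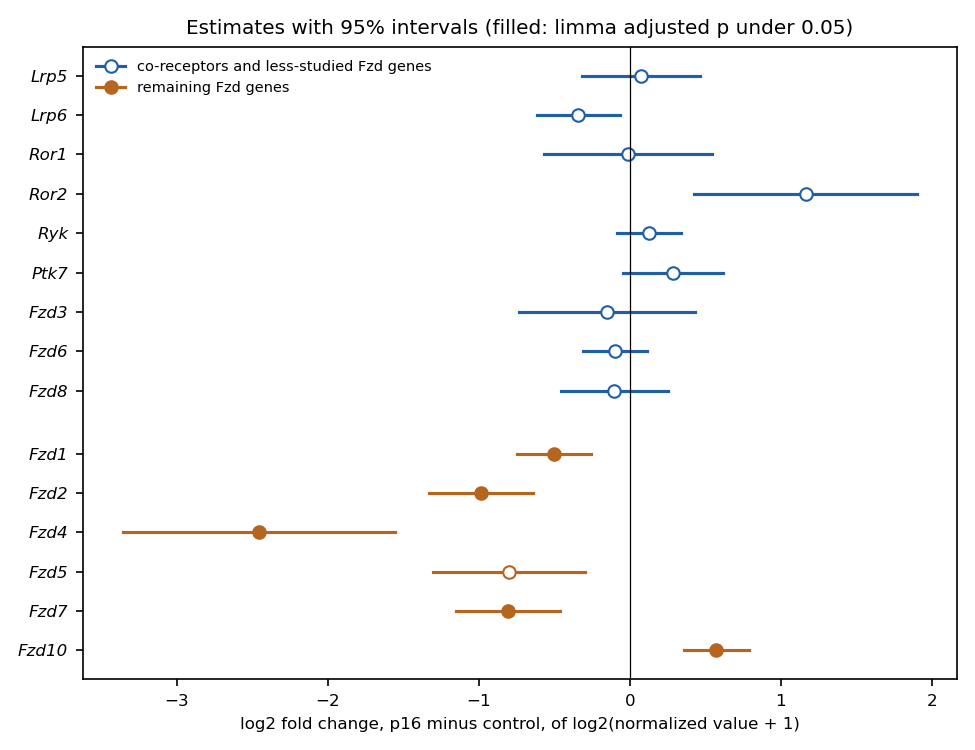
Log2 fold change (x axis, p16 minus control on log2(normalized value + 1)) of each tested receptor gene with its 95% interval from limma, in blue for co-receptors and less-studied Fzd receptors and in brown for the remaining Fzd genes, with filled points for an adjusted p under 0.05. None of the 9 blue points is filled and 5 of the 6 brown points are.

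Genes that fold, traffic, remove or block the receptors at the membrane moved in both directions. Of 28 such genes, 19 were tested, 3 were called higher and 3 lower (1.24% and 2.61% of all tested genes were), with a median log2 fold change of 0.14. Values of the named genes are normalized values as mean ± SD of 4 samples. Shisa2, whose family retains Wnt and FGF receptors inside the cell, fell from 95.6 ± 17.6 to 10.8 ± 3.97 (limma adjusted p = 1.11e-05). Dkk3, a secreted relative of the Lrp5 and Lrp6 inhibitor Dkk1, fell from 121 ± 23.1 to 57.9 ± 7.72 (limma adjusted p = 0.00199). The R-spondin receptor Lgr4 fell from 404 ± 53.9 to 237 ± 45.7 (limma adjusted p = 0.00722), while its relative Lgr6 rose from 581 ± 52.7 to 856 ± 131 (limma adjusted p = 0.0127). Znrf3, the ubiquitin ligase that removes Fzd and Lrp6 from the surface, rose from 73.4 ± 9.67 to 113 ± 12.1 (limma adjusted p = 0.0215). Lypd6b, a membrane-anchored protein of the Ly6 family, rose from 117 ± 13.0 to 162 ± 13.0 (limma adjusted p = 0.0387). Shisa2, Dkk3 and Lgr4 were called in all of 18 other settings. Lgr6 did not pass without replicate 3 of both groups (limma adjusted p = 0.078), Znrf3 did not pass there or without control replicate 3, p16 replicate 1 or p16 replicate 3 (0.066 to 0.16), and Lypd6b passed in 11 settings, with an adjusted p of up to 0.14 when p16 replicate 1 was left out.

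Below the receptors, all 24 genes of the β-catenin relay in the table were tested, and 1 was called higher and 0 lower, a share near the 3.86% called over all genes. At an unadjusted p under 0.05 in limma, 1 was higher and 2 were lower, where 15.9% of all genes pass. Their median log2 fold change was 0.05. Axin2, a scaffold of the destruction complex that Wnt signals induce, rose from 107 ± 17.2 to 178 ± 8.93 (limma adjusted p = 0.00379, and 0.0504 without replicate 3 of both groups, the 1 setting of 18 in which it did not pass). Ctnnb1, which encodes β-catenin, had 1908 to 2107 in control samples and 1531 to 1687 in p16 samples, without overlap, but its adjusted p of 0.0883 in limma did not pass (0.0113 with DESeq2). Cdk14, a kinase of Lrp6, was at 5.0 to 12.2 in control samples and 1.6 to 5.3 in p16 samples (limma adjusted p = 0.147).

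On the β-catenin-independent side, 29 of 31 planar polarity and relay genes were tested, and 1 was called higher and 0 lower, again near the 3.86% over all genes, with a median of -0.06. At an unadjusted p under 0.05 in limma, 5 were higher and 7 lower, where 7.02% of all genes are higher and 8.93% lower. The called gene was Wnt5a, the ligand of Ror2, with 34.1 to 59.6 in control samples and 64.8 to 150.5 in p16 samples (limma adjusted p = 0.0269). It did not pass without control replicate 1, 2 or 3, without p16 replicate 1 or without replicate 3 of both groups (0.055 to 0.098). Ankrd6, the Dvl-binding polarity protein also called Diversin, was at 1.7 to 16.8 in control samples and 20.3 to 25.5 in p16 samples, without overlap (limma adjusted p = 0.0769). Its log2 fold change of 1.53 became 1.00 without control replicate 3 (limma adjusted p = 0.0985) and 0.99 without replicate 3 of both groups (0.202). It passed in 4 of 18 other settings, namely without control replicate 4 (0.0275), with the replicate block (0.0386), with DESeq2 (0.0378) and with edgeR without a filter (0.0277). The core polarity gene Vangl2 was at 179.6 to 257.4 and 129.6 to 191.6 (limma adjusted p = 0.167).

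Of 12 other LDL receptor family genes, 9 were tested and 0 were called (2 higher and 0 lower at an unadjusted p under 0.05 in limma, where 15.9% of all genes pass, median -0.07). Those with the lowest p were Sorl1 (193 ± 27.9 in control and 244 ± 21.9 in p16 cells, limma adjusted p = 0.145), Lrp4 (43.8 ± 11.4 and 62.5 ± 11.7, limma adjusted p = 0.228) and Lrp12 (78.0 ± 12.5 and 61.2 ± 9.74, limma adjusted p = 0.328). Of 10 glypicans and syndecans, heparan sulfate proteins that bind Wnt at the cell surface, 8 were tested and 2 were called lower (2.61% of all genes were, list median -0.17). Gpc6 fell from 36.6 ± 9.16 to 3.85 ± 1.70 and Sdc1 from 2996 ± 448 to 2139 ± 217 (limma adjusted p = 8.49e-05 and 0.0322). Gpc6 was called in all of 18 other settings and Sdc1 in 12, with a limma adjusted p of 0.076 to 0.22 without control replicate 3 or 4, p16 replicate 1, 2 or 3, or replicate 3 of both groups. Sdc2 was at 90.1 ± 11.2 and 78.6 ± 9.47 (limma adjusted p = 0.572). Most hair-follicle stem cell markers, given above, fell in the same samples, and their part in the lower values of these genes was not tested.

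**Figure D4:**
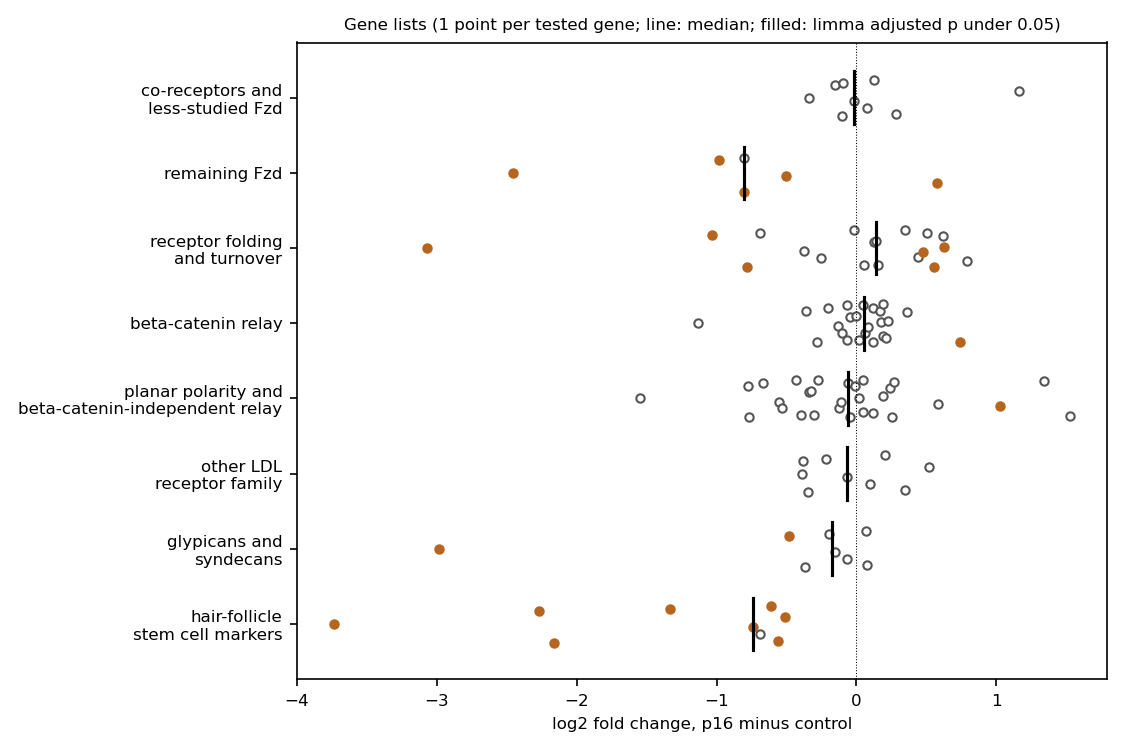
Log2 fold change (x axis, p16 minus control) of every tested gene in 8 lists (y axis, 1 point per gene, vertical offset only for legibility), with a line at the median of each list and filled points for a limma adjusted p under 0.05. The co-receptors and less-studied Fzd receptors centre at -0.01, the remaining Fzd receptors at -0.80 and the hair-follicle stem cell markers at -0.74.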

How the data were processed

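GFP+ keratinocytes of 4 control and 4 p16 samples were profiled. The authors made CEL-Seq2 libraries (3′ ends), used Cutadapt for trimming and TopHat2 for alignment to GRCm38 and, per the submitters' processing notes, HTSeq and DESeq2. The annotation version and any use of molecular identifiers are not given in the sources used here. The deposited signal values are read counts over the size factor of their library, rounded to 1 decimal. At least 99.995% of the values in each library were whole multiples of 1 read (within 0.05). The table also holds 6 columns of the authors' group means and tests, which were not used.

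The main test was that of limma 3.58.1 (R 4.3.3, trended eBayes), fitted on log2(value + 1) without a term for the replicate number, since no source says that numbers mark a shared litter or day. edgeR 4.0.16 and DESeq2 1.42.0 were run on the recovered reads and called 459 and 546 genes, against 493 with limma. Exact permutation tests used scipy 1.17.1. The main limma fit, edgeR with TMM and a filter, and DESeq2 were tested on simulated counts with known changes, and the other settings were not. Each sample is a pool of mice. The 4 of a group came from 3 experiments that the sources do not tie to samples, so p-values measure the spread between these pools. No 2 libraries of a group agreed within sampling noise. The receptors and gene lists were chosen with earlier results of these data known. Named genes are the receptors and, in each pathway list, every called gene or, where fewer than 3 were called, those with the lowest p up to 3. Coordinates are from GENCODE M21 on GRCm38. Alternatives were a pseudocount of 0.1, other filters and scalings, the replicate block, each sample left out, replicate 3 of both groups left out, and the count tests.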

Additional observations from a re-analysis of the deposited data

Results flagged for a closer look

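In 3 of 73 groups of 4 samples tested, a single sample stood apart by Dixon's ratio (its gap to the nearest sample over the range), where chance flags about 1 in 20 groups. The lowest p16 sample had a normalized value of 168.6 for Lgr4 (ratio 0.856). For Ctnnb1 the lowest p16 sample had 1531 (ratio 0.850). For Sdc1 the highest p16 sample had 2464.2 (ratio 0.986). None of the 10 co-receptors and less-studied Fzd receptors was among them.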

How the results depend on the processing

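None of the 9 tested receptors passed under any of 18 other settings. In the main fit, 2 had an unadjusted p under 0.05. Over the 18 other settings, Ror2 had such an unadjusted p in 18, Lrp6 in 15 and Ptk7 in 3. Over all genes, 493 were called, 263 without control replicate 1, 261 without p16 replicate 1 (261 to 539 over the 8 fits that left out a sample), 223 without replicate 3 of both groups and 2038 at an unadjusted p. The cause was not tested. Directions turned for Ror1, Fzd3, Lrp5 and the Fzd6 share, none of which was called. The log2 fold change of Ror1 (-0.01) became 0.021 with total count scaling, 0.017 with edgeR and TMM, 0.024 with upper quartile scaling, 0.025 without a filter and 0.020 with DESeq2, 0.12 without replicate 3 of both groups, and ran from -0.16 to 0.13 with a sample left out. That of Fzd3 became 0.030 without replicate 3 of both groups and ran from -0.32 to 0.05 with a sample left out. That of Lrp5 became -0.11 without replicate 3 of both groups and ran from -0.042 to 0.19. The Fzd6 share difference became -0.76 percentage points without replicate 3 of both groups and ran from -0.55 to 0.85. Total count scaling shifted the median of all genes to 0.03 and the share of higher calls from 32.2% to 40.7%. With the replicate block, 608 genes and 0 of the receptors were called (lowest adjusted p 0.0534, Ror2). Deviations of same-numbered samples correlated between 0.004 and 0.083 and those of other pairs between -0.1 and 0.058. Of 8 samples, 4 correlated best with their own number. The study's methods state that the compared groups were siblings kept and treated together, but do not tie siblings to sample numbers. Apart from the protocol that the labels name for replicate 3, pairing by number thus rests on a shared number and these low correlations. In shares, the block allows no p below 0.125. Low read numbers limit Ror2, Ror1, Fzd3 and Fzd9.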
